A study of Mus musculus with 25 samples.

Results

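The array used here carries probes for long intergenic RNA, transcripts without a known protein product that lie outside annotated genes. Such a probe has a name that starts with A_30_P and, in place of a gene symbol, the mm9 (NCBI37) coordinates and strand of the region it was designed for. The array held 4460 probes with this prefix, and the 2985 that were gene probes and were also in the deposited expression table are described here. They named 2319 regions, of which 1770 had 1 probe, 549 had more than 1 and none had more than 5. Coordinates served as the name for 2979 of the probes, and the other 6 had a gene name. A measurable signal on enough arrays for a test was found for 2848 of the 2985 probes in 2233 regions, and 137 were not tested. The deposited table held 40561 probes in all.

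The probes were read in perigonadal white adipose tissue, the fat pad beside the epididymis, of refed male C57BL6/J mice of 2 lines, 1 array per mouse, in 4 groups. The ChREBPbeta_WT group (7 arrays, here ChREBPβ WT) and the ChREBPbeta_KO group (6 arrays, ChREBPβ KO) were wild-type and deleted mice of a line in which exon 1b of Mlxipl was deleted in the whole body by CRISPR/Cas9. The ChREBPtotal_WT group (7 arrays, total ChREBP WT) and the ChREBPtotal_KO group (5 arrays, total ChREBP KO) came from a line with a whole-body loss of Mlxipl, which removes the α and β isoforms together. All mice were fed a regular diet, fasted, and refed with food and glucose-supplemented water before the tissue was taken, and no other treatment was given. The age of the mice was not given in the sources used here. The deletions were not restricted to adipocytes, so any organ of these mice could have contributed to a difference in the fat pad. The comparisons asked what changed in fat when only the β isoform was lacking and when both isoforms were lacking.

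Mlxipl encodes ChREBP, a transcription factor that is activated by glucose metabolites and drives genes of glycolysis and fatty acid synthesis in liver and fat. The β isoform starts from its own promoter and first exon and lacks the glucose-sensing part of the protein. Long intergenic RNAs are in general transcribed and spliced like messenger RNAs, often at low levels and in few cell types. For most of them no function is known, and a difference in such an RNA can accompany a difference in a gene beside it. A region of this kind can also hold a processed pseudogene or an unannotated end of a neighbouring gene.

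The sequences of 13 probes that carry the main results are given first, each 5′ to 3′ as the array file held it, with its mm9 position. The first 4 belong to the regions that fell most clearly in total ChREBP KO. The next pair reads the opposite strands of 1 region on chromosome 10, and the capitals mark the 29 bases that the probes share as reverse complements. The following 4 belong to regions that rose. The probes A_30_P01030520 and A_30_P01026346 read opposite strands beside Csad, with their 56 shared bases in capitals. The last lies within the noncoding gene Pvt1.
A_30_P01032968, chr14:26842200-26842259, reverse strand: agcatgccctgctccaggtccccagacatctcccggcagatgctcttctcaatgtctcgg
A_30_P01026145, chr4:32294443-32294502, forward strand: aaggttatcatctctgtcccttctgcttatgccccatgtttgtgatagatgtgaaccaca
A_30_P01021530, chr14:33972317-33972376, forward strand: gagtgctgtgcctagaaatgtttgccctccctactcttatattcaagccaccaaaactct
A_30_P01023742, chr14:62266258-62266317, reverse strand: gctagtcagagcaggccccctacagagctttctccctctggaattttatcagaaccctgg
A_30_P01018341, chr10:8661294-8661353, reverse strand: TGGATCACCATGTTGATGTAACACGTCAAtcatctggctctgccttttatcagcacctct
A_30_P01032178, chr10:8661325-8661384, forward strand: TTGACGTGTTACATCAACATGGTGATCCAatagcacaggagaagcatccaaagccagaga
A_30_P01020836, chr15:102926905-102926964, reverse strand: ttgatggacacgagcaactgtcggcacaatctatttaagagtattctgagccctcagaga
A_30_P01024821, chr8:67230570-67230629, forward strand: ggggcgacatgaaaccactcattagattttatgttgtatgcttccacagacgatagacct
A_30_P01026385, chr5:137412903-137412962, forward strand: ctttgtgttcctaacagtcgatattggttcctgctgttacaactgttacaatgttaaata
A_30_P01031677, chr15:102033563-102033622, reverse strand: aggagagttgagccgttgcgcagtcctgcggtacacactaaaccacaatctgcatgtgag
A_30_P01030520, chr15:102033638-102033697, reverse strand: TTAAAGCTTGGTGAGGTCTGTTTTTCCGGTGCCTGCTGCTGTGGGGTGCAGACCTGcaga
A_30_P01026346, chr15:102033642-102033701, forward strand: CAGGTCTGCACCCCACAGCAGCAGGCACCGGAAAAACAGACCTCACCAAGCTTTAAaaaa
A_30_P01025687, chr15:62074025-62074084, forward strand: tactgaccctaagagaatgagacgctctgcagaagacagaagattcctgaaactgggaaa

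The 2985 probes were all 60 bases long, with a median GC content of 45% (range 18.3 to 88.3). Regions ran from 62 to 533972 bases, with a median of 9067. A probe position was available for 2941 probes, and each of these lay inside the region it named. The nearest probe of a named gene was a median of 18384 bases away (quartiles 6009 and 43074). In 238 cases the probe lay between probe positions of 1 named gene, on that gene's strand in 137, so that not every region was intergenic by the present array annotation. The 2 strands were read about equally, with 1477 forward and 1508 reverse probes. Runs of 20 or more bases were shared with a probe outside the prefix for 39 probes.

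Levels were log2 intensities after quantile normalization. The mean level of the 2848 tested probes ran from 4.50 to 17.23, with quartiles of 5.47, 6.40 and 7.94. Between 2871 and 2951 of the 2985 probes were well above background on any array. The authors had filtered the deposited table on flags of this kind, so a high share followed from the choice of probes. The median SD within groups was 0.17 log2 units, against 0.18 for the 36771 other tested probes. The brightest of the probes of the targeted gene Mlxipl read 14.70 to 15.43 in ChREBPβ WT (median 15.07), 14.02 to 14.70 in ChREBPβ KO (median 14.35), 15.64 to 16.28 in total ChREBP WT (median 16.01) and 14.08 to 14.29 in total ChREBP KO. It fell in total ChREBP KO by 1.75 (adjusted p = 3.17e-08) and read -0.73 in ChREBPβ KO (adjusted p = 0.14). Of the other Mlxipl probes, 1 fell in total ChREBP KO by 0.66 (adjusted p = 0.00109) and 1 read 0.08 (adjusted p = 0.687). Their place relative to the deleted sequence was not checked. Mean levels of 8 adipocyte markers lay between 15.61 and 16.19 on every array, and 2 of the 8 rose in total ChREBP KO (median of the list 0.19). A list of 8 liver markers was not flat: its mean level was 12.62 to 16.45 in ChREBPβ WT, 11.05 to 15.77 in ChREBPβ KO, 7.0 to 13.33 in total ChREBP WT and 6.58 to 7.82 in total ChREBP KO. Of the 8 liver markers, 1 fell in total ChREBP KO, and all 8 were lower in the wild types of the total ChREBP line than in those of the ChREBPβ line by the same test. None of the macrophage (6), lymphocyte (6), endothelial (5) and mesothelial (5) markers passed the test in total ChREBP KO.

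No long intergenic RNA probe passed the test when only ChREBPβ was lacking. At an adjusted p under 0.05, with all 39619 tested probes in the adjustment, 0 of 2848 were called between ChREBPβ KO and WT, and 2 probes of the whole array were (0.00505%). At an unadjusted p under 0.05 there were 137 (4.81%), against 9.55% of the other tested probes. Differences in log2 level ran from -0.88 to 0.81, with 9 in 10 of them between -0.15 and 0.20. The lowest p belonged to A_30_P01032682, which lies 35182 bases from Socs3. Its level was 10.21 to 10.65 in ChREBPβ WT (median 10.28) and 9.75 to 10.24 in ChREBPβ KO (median 9.79), a difference of -0.43 ± 0.11 (SE) with an adjusted p of 0.246, and the groups overlapped at the edge of their ranges. A_30_P01024210 read 0.58 ± 0.15 (adjusted p = 0.246), but it was well above background on 1 of the 7 ChREBPβ WT arrays, 6 of the 6 ChREBPβ KO arrays and none of the total ChREBP line. It entered the test through the group in which it was high, so its difference had to point that way. A_30_P01029329, on the Kif3c side of its region, read 0.28 ± 0.08 (adjusted p = 0.328). When ChREBPβ KO replicate 4 was left out, 1 probe was called, A_30_P01022760 (1.05 ± 0.19, adjusted p = 0.0364), for which all arrays gave 0.81 and an adjusted p of 0.328.

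Loss of both isoforms changed 161 of the 2848 probes in 152 regions. That is 5.65% of the tested long intergenic RNA probes, where 8.95% of all tested probes were called and 9.21% of the probes outside the prefix. Higher levels in total ChREBP KO were found for 110 (3.86%, against 5.48% of all tested probes) and lower levels for 51 (1.79%, against 3.47%). For 77 of the 161 (2.7% of those tested, against 5.57% of all) no array of one group reached into the range of the other. The median size of the called differences was 0.44 log2 units, and 11 exceeded 1 unit. Within the 4 wash batches, 161, 159, 158 and 161 of the 161 differed in the direction of the pooled value. Of all 2848, the median difference was 0.02, the same as over all tested probes. In whole tissue, fewer cells of a type and less RNA per cell cannot be told apart, here and below. Of 8 epididymal markers 3 were tested, with a mean level of 7.75 to 12.85 in total ChREBP WT and 6.73 to 7.85 in total ChREBP KO. The 12.85 was on 1 array, total ChREBP WT replicate 2. The liver marker levels given above differed between these groups too. When they and the epididymal marker levels entered the fit 106 probes were called, of which 48 were higher and 58 lower, so that the larger share of the calls turned from higher to lower, and 86 of the 106 were among the 161. When the 3 total ChREBP WT arrays with the highest liver marker levels were left out 104 were called, 61 higher and 43 lower.

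**Figure D1:**
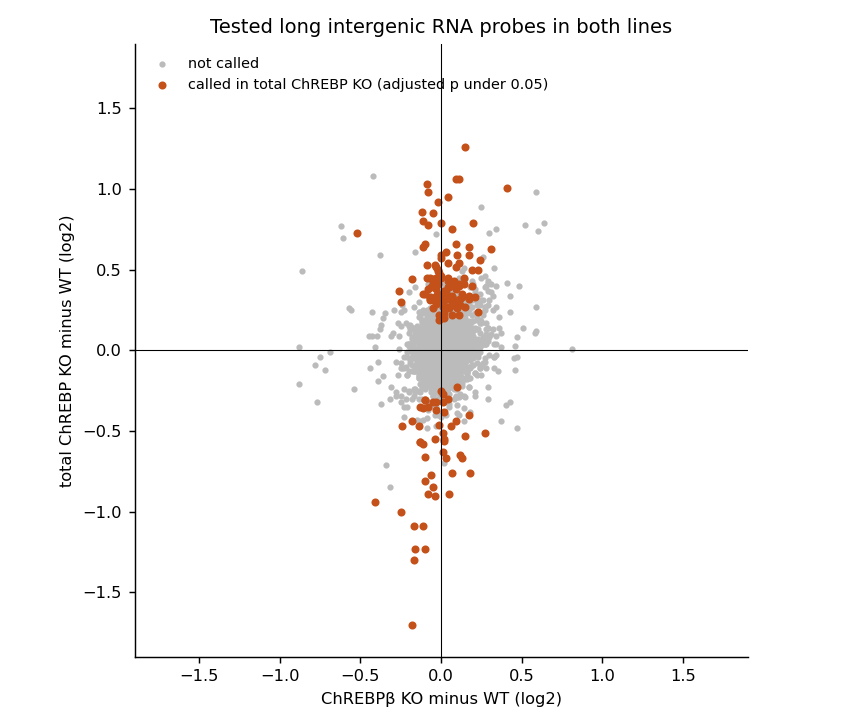
Log2 difference of each of the 2848 tested long intergenic RNA probes in the ChREBPβ line (KO minus WT, x axis) against the total ChREBP line (y axis), with called probes coloured. The 161 called probes spread along the y axis between -1.70 and 1.26, while no probe was called along the x axis.

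The share called depended on the level of the probe. All tested probes were divided into 5 equal bins by mean level, and the long intergenic RNA probes were concentrated in the dim bins (1018 in the lowest, 156 in the highest). In the lowest bin 2.75% of them were called in total ChREBP KO, against 3.58% of the other probes. The shares were 5.64% and 6.33% in the next bin, 8.72% and 8.4% in the middle bin, and 8.31% and 10.5% in the one above. In the highest bin they were 8.97% and 16.4%. The shares were thus close in the 3 dimmest bins and lay furthest apart in the brightest. By chromosome, the share of these probes called ran from 1 of 113 (0.885%) on chromosome 7 to 15 of 124 (12.1%) on chromosome 15. The shares of all tested probes by chromosome were not counted, so these values are no result about a chromosome. Several of the called probes on chromosome 15 lie close together.

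**Figure D2:**
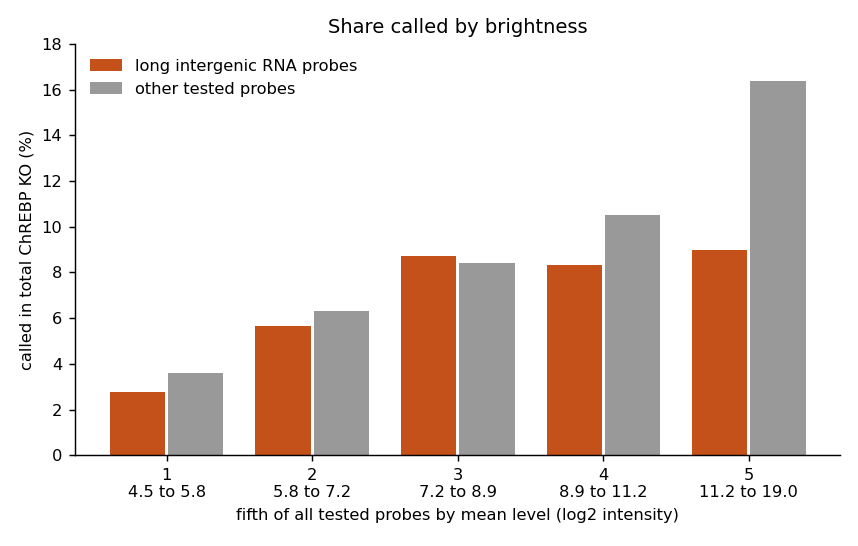
Percent of probes called in total ChREBP KO against WT (y axis, from 0) in 5 equal bins of all tested probes by mean log2 level (x axis), for long intergenic RNA probes and other probes. The shares lie close in the 3 dim bins and part in the brightest bin, at 8.97% and 16.4%.

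The largest fall in total ChREBP KO was on chromosome 14. A_30_P01032968, in chr14:26834450-26847000, had levels of 12.07 to 12.51 in total ChREBP WT (median 12.39) and of 10.63, 10.55, 10.74, 10.46 and 10.88 in the 5 total ChREBP KO arrays. Every KO array lay below every WT array, and the difference was -1.70 ± 0.12, a 3.26-fold lower level (adjusted p = 2.28e-09). In the ChREBPβ line it was 11.09 to 11.84 in WT (median 11.51) and 10.95 to 11.60 in KO (median 11.35), and these groups overlapped. Likeness between probes was measured as Pearson's r over all 25 arrays, which share the groups and batches, and is given as a description. The named genes most like this probe were Pdha1, a subunit of pyruvate dehydrogenase (r = 0.977), Acaca, the acetyl-CoA carboxylase that opens fatty acid synthesis (0.970), and Pdhb, another subunit of pyruvate dehydrogenase (0.969). These genes fell as well, with differences of -1.43, -2.37 and -1.22.

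A_30_P01026145, in the short region chr4:32294119-32294941, lies 186739 bases from Map3k7, the nearest named gene, which read 0.04 (adjusted p = 0.786). The probe had levels of 13.40 to 14.04 in total ChREBP WT (median 13.78) and of 12.31, 12.52, 12.52, 12.52 and 12.45 in KO. The groups did not overlap, and the difference was -1.30 ± 0.12 (adjusted p = 1.84e-07). Its levels tracked those of Gapdh, the glycolytic glyceraldehyde-3-phosphate dehydrogenase, with r between 0.88 and 0.98 for the 7 Gapdh probes. Those probes differed by -0.41 to -1.21. Over 25 arrays, 171 probes outside the prefix had r above 0.9 with it, and the closest, predicted genes 8614 and 7741, each had r = 0.996. In sequence, 46 of 53 aligned bases of this probe matched a probe for a predicted gene outside the prefix, so a signal from related transcripts cannot be told apart from one of the named region.

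A_30_P01021530 and A_30_P01023742, in different regions of chromosome 14, had the same profile. The former had levels of 11.89 to 12.27 in total ChREBP WT (median 12.19) and of 10.90, 10.74, 10.99, 10.77 and 10.94 in KO, a difference of -1.23 ± 0.11 (adjusted p = 8.38e-08). The latter had levels of 9.66 to 10.12 in WT (median 9.90) and of 8.59, 8.58, 8.79, 8.58 and 8.86 in KO, a difference of -1.23 ± 0.10 (adjusted p = 1.56e-08). Neither pair of groups overlapped. The closest features to both were predicted genes, with r of 0.980 (predicted gene 5187) and 0.989 (predicted gene 27037). The nearest named gene of A_30_P01023742 is Dleu2, a noncoding gene at 14965 bases on the same strand. It went the other way, with 0.28 by its nearest probe (adjusted p = 0.0238) and 0.23 by its brightest (adjusted p = 0.47). The probe for the opposite strand of the same region, A_30_P01026438, read 0.06 (adjusted p = 0.783).

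The other 4 of the 8 largest falls lay on chromosomes 2, 5, 9 and 10. A_30_P01024233 had levels of 10.60 to 11.02 in total ChREBP WT (median 10.84) and of 9.70, 10.13, 9.85, 9.66 and 9.86 in KO (-1.0 ± 0.09, adjusted p = 1.32e-07). It lies between probe positions of D5Ertd579e on the same strand, and that gene fell by 0.79 at its brightest probe. Its closest genes were Mpc1, a subunit of the mitochondrial pyruvate carrier (r = 0.957), and Tatdn3. A_30_P01031167, near Tbc1d21, had levels of 7.33 to 8.29 in WT (median 8.07) and of 6.44, 7.04, 6.77, 7.04 and 6.70 in KO (-1.09 ± 0.18, adjusted p = 0.000233), and it was most like Dixdc1 (r = 0.864). A_30_P01032592 differed by -0.90 ± 0.13 (adjusted p = 3.97e-05), and the gene beside it, 5330411J11Rik, read -0.01. The remaining fall, A_30_P01018341, belongs to a region read by 3 probes.

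In that region, chr10:8606683-8665783, all 3 probes fell and none of the groups overlapped in the total ChREBP line. A_30_P01018341, which reads the reverse strand, had levels of 8.82 to 9.30 in WT (median 9.04) and of 7.84, 8.04, 8.29, 7.88 and 7.95 in KO (-1.09 ± 0.13, adjusted p = 3.5e-06). A_30_P01032178 reads the forward strand over the 29 bases in capitals above, with levels of 6.03 to 6.32 in WT (median 6.11) and of 5.24, 5.42, 5.42, 4.95 and 5.37 in KO (-0.89 ± 0.11, adjusted p = 5.19e-06). A_30_P01028422, also forward, differed by -0.77 ± 0.12 (adjusted p = 0.000166). Signal was thus lower in total ChREBP KO on both strands of the region. Sash1, the nearest named gene at 127715 bases, read -0.17 by its brightest probe (adjusted p = 0.289). Among named genes, A_30_P01018341 was close to Slc2a4, the insulin-regulated glucose transporter (r = 0.909), which fell by 1.4.

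**Figure D3:**
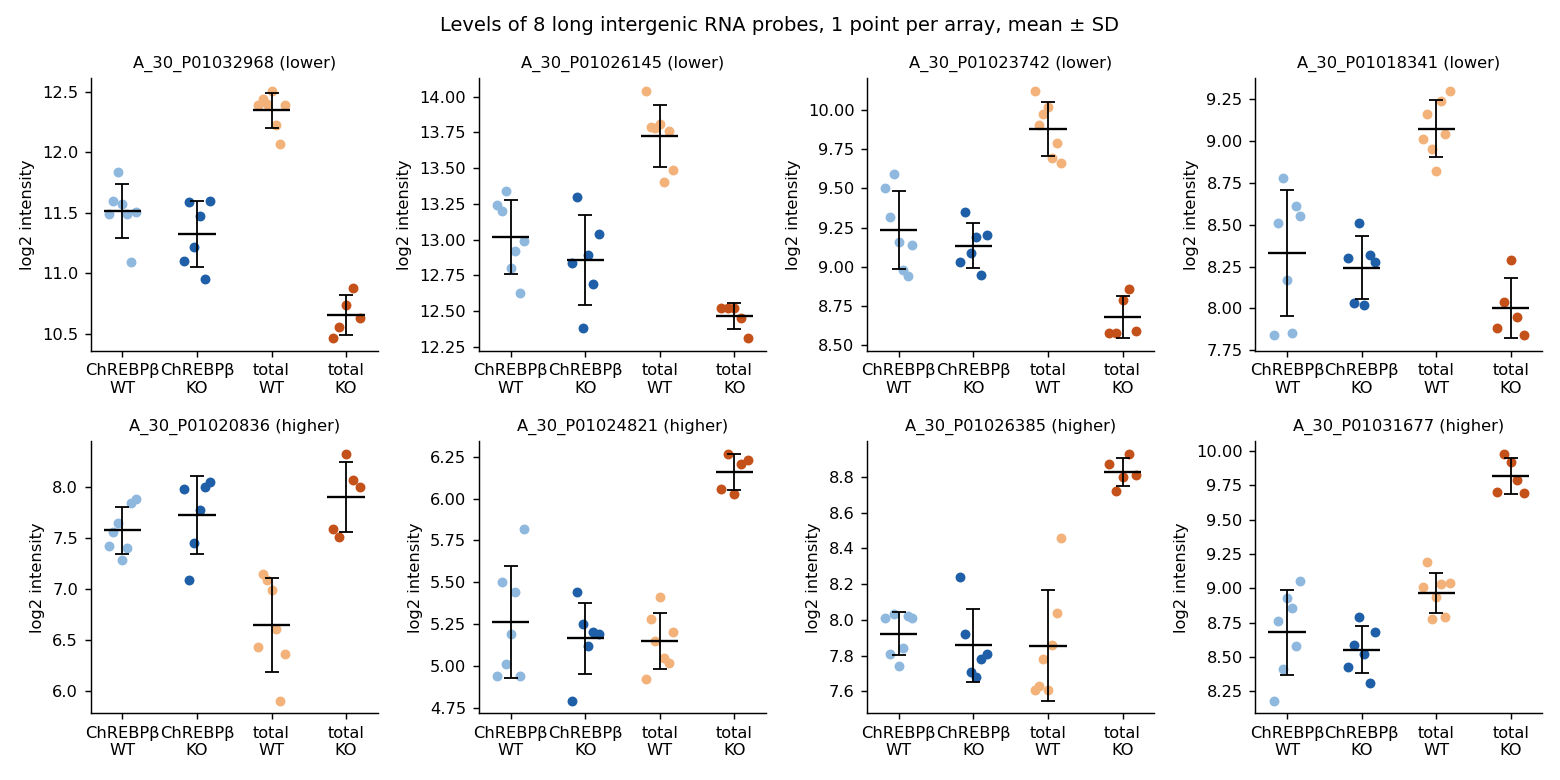
Log2 level on each array (points) with the group mean and SD (lines) in the 4 groups for 4 probes that fell and 4 that rose in total ChREBP KO. The 5 total ChREBP KO arrays lie outside the range of total ChREBP WT in all 8 panels, and the ChREBPβ groups overlap in all 8.

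The largest rise in total ChREBP KO was beside the HoxC cluster, genes for transcription factors that set position along the body axis and are active in posterior fat depots. A_30_P01020836, in chr15:102926581-102932542, had levels of 5.90 to 7.15 in total ChREBP WT (median 6.61) and of 8.0, 7.51, 8.33, 7.59 and 8.07 in KO, a difference of 1.26 ± 0.21 (adjusted p = 0.000318). A_30_P01019864 and A_30_P01017908, on the same strand within 3 kb, each rose by 1.06 (adjusted p = 0.000297 and 0.000425) without overlap between groups. The r of A_30_P01020836 with the other two was 0.939 and 0.973. In the ChREBPβ line A_30_P01020836 was at 7.28 to 7.88 in WT and at 7.09 to 8.05 in KO. The total ChREBP KO arrays thus lay near the ChREBPβ arrays, and the total ChREBP WT arrays lay below the ChREBPβ WT arrays by 0.93 (adjusted p = 0.00146). The choice of this probe by its rise from the same total ChREBP WT arrays favoured that direction. The nearest named gene, Gm28876, read 0.34 (adjusted p = 0.145). HoxC genes, looked up after these values were seen, read 0.46 and 0.50 for the Hoxc6 probes and 0.47 for Hoxc5, all called, while Hoxc4 (0.41), Hoxc8 (0.31), Hoxc9 (0.08) and Hoxc10 (0.26) were not.

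A_30_P01024821, in chr8:67213300-67271700, had levels of 4.92 to 5.41 in total ChREBP WT (median 5.15) and of 6.23, 6.27, 6.03, 6.06 and 6.21 in KO (1.03 ± 0.14, adjusted p = 2.18e-05). Its nearest named gene at 11762 bases on the opposite strand is Klhl2, which encodes an adaptor of a ubiquitin ligase, and Klhl2 rose by 1.20. A_30_P01026385 had levels of 7.61 to 8.46 in WT (median 7.78) and of 8.81, 8.72, 8.80, 8.87 and 8.93 in KO (0.98 ± 0.12, adjusted p = 5.19e-06). For both probes every KO array stood above every WT array of the line. Of the named genes, A_30_P01026385 was most like Pde4dip (r = 0.915), which anchors proteins at the Golgi and centrosome, while its neighbour Ift22 read 0.22 (adjusted p = 0.225). A_30_P01024115, at 7286 bases from Mir155hg on the opposite strand, rose by 0.95 ± 0.12 (adjusted p = 1.58e-05). A_30_P01030988 rose by 0.92 ± 0.15 (adjusted p = 0.000187) and was most like Pck1, which drives glyceroneogenesis in fat (r = 0.841, with a difference of 2.44).

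Beside Csad, the enzyme that makes hypotaurine on the way to taurine, the probes on the strand of the gene rose and the probe on the other strand did not pass the test. A_30_P01031677, in chr15:102026122-102033725, had levels of 8.78 to 9.19 in total ChREBP WT (median 9.01) and of 9.69, 9.98, 9.92, 9.70 and 9.79 in KO (0.86 ± 0.13, adjusted p = 7.52e-05). A_30_P01030520 rose by 0.41 ± 0.08 (adjusted p = 0.002), and A_30_P01022636, of an overlapping region, rose by 0.79 (adjusted p = 5.63e-05). Csad itself rose by 0.78 at its brightest probe and 0.73 at its nearest. A_30_P01026346, the reverse complement of A_30_P01030520 over 56 bases, had levels of 5.47 to 5.77 in WT and of 5.83, 5.95, 5.85, 5.81 and 5.96 in KO. Those groups did not overlap either, but the difference was 0.22 ± 0.09 with an adjusted p of 0.146. The 16 leading rises and falls kept their direction and their call in every one of the 39 or 40 alternative settings in which they were tested, with adjusted p of 0.00863 or less. Their sizes stayed within 1.5 times of the values above with these exceptions. A_30_P01024821 ran from 0.60 with normexp background correction to 1.73 with scaling to the 75th percentile, and A_30_P01024115 read 0.63 with normexp.

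Some regions had both called probes and probes that did not pass the test, and differences between probes of a region were not tested. Tested probes on both strands were available in 421 regions, of which 37 had a call on 1 strand and 2 on both. Among 511 regions with 2 or more tested probes, 8 had 2 or more called. In chr17:26911032-26912366, A_30_P01030991 and A_30_P01026788 rose by 0.64 and 0.66 (adjusted p = 0.0144 and 0.0101), while A_30_P01022496 on the same strand read 0.19 (adjusted p = 0.488). Both calls were lost in 3 settings, marker levels as covariates among them (highest adjusted p 0.186 and 0.152). The brightest probe of Bnip1, the nearest named gene, read -0.13. In chr2:60038543-60046318, A_30_P01024134 rose by 0.48 and A_30_P01021448 by 0.35, while A_30_P01027860 (0.26) on their strand and A_30_P01021281 (0.17) on the other were not called. The call of A_30_P01024134 was lost with the marker levels as covariates (adjusted p = 0.0739). The call of A_30_P01021448 was lost in 14 settings, 9 of which left out a single array of the total ChREBP line (highest adjusted p 0.238). In chrX:50400250-50410825, A_30_P01026587 fell by 0.58 (adjusted p = 0.00071), while A_30_P01032068 on the same strand read 0.39 (adjusted p = 0.338). In chr15:61984389-62102500, a region within Pvt1, a noncoding gene beside Myc, all 3 probes read lower and 1 was called. A_30_P01025687 fell by 0.63 (adjusted p = 0.000221), with levels of 6.88 to 7.43 in total ChREBP WT and of 6.46, 6.51, 6.57, 6.41 and 6.55 in KO. It shares 28 bases with a probe for Pvt1 itself, which differed by -0.49. A_30_P01029551 on the same strand (-0.40, adjusted p = 0.122) and A_30_P01020638 on the other (-0.25, adjusted p = 0.248) went the same way without passing the test.

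**Figure D4:**
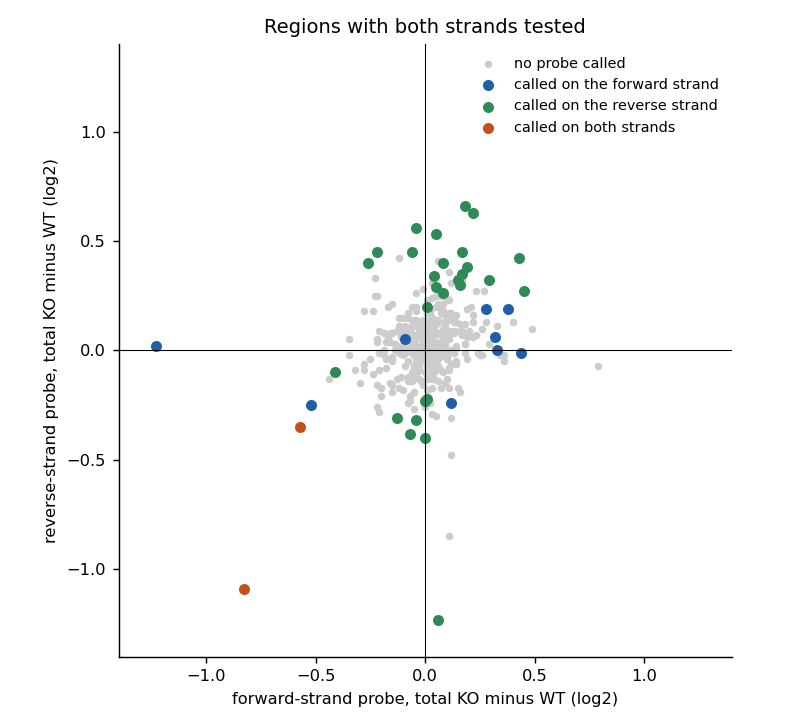
Log2 difference, total ChREBP KO minus WT, of the forward-strand probes (x axis, mean where a region had several) against the reverse-strand probes (y axis) of the same region, for 421 regions. Most of the 37 regions called on 1 strand read a smaller difference on the other, which their choice by that call favours. The 2 regions called on both lie at the lower left.

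The nearest named gene of each probe was set beside it, by distance and strand, with no test of the shares. Of 131 called probes with a tested nearest gene, 27 neighbours were called in the same direction, 3 in the opposite direction and 101 were not called. The share with a called neighbour was 22.9%, against 144 of 2040 (7.06%) for probes that were not called. Under 1 kb, the neighbour was called in the same direction for 6 of 6 called probes on its strand and for 6 of 7 on the opposite strand. Between 1 and 10 kb this was so for 6 of 24 on the same strand and 1 of 15 on the opposite strand. From 10 to 100 kb it was so for 3 of 35 and 3 of 31, and beyond 100 kb for 2 of 9 and 0 of 4. Between the wild types the share with a called neighbour was 24.3% for called probes and 19.4% for the others. These counts are a description, since neighbours share arrays and some probes share a neighbour.

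The difference between the effects of the 2 deletions, total ChREBP minus ChREBPβ, was called for 51 probes (1.79%, against 3.24% of all tested probes). The total effect was the higher for 27 (0.948%, against 1.29%) and the lower for 24 (0.843%, against 1.95%). It was called for each of the 16 leading probes above, from -1.52 for A_30_P01032968 (adjusted p = 4.03e-06) to 1.11 for A_30_P01020836 (adjusted p = 0.0344) and A_30_P01024821 (adjusted p = 0.00082). Those probes were chosen for their effect in the total ChREBP line, which enters this difference, so their calls follow in part from the choice. The others of the 6 largest included 3 forward-strand probes 44 to 53 kb from Masp1, a serine protease of the lectin complement pathway. A_30_P01028355 had levels of 8.23 to 9.78 in ChREBPβ WT (median 8.73), 7.17 to 8.98 in ChREBPβ KO (median 8.23) and 9.43 to 10.05 in total ChREBP WT (median 9.72). In total ChREBP KO it read 10.55, 10.70, 10.76, 10.48 and, on the lowest array, 10. The difference between effects was 1.39 ± 0.37 (adjusted p = 0.0413), with -0.62 in the ChREBPβ line and 0.77 in the total ChREBP line, neither of which was called. A_30_P01020675 gave 1.32 ± 0.36 (adjusted p = 0.0471) and A_30_P01030265 gave 1.25 ± 0.31 (adjusted p = 0.0237), also with opposite signs in the lines. These calls were lost in 19, 24 and 4 of the alternative settings respectively, where the adjusted p reached 0.0925, 0.109 and 0.0931. For the former pair most of these settings left out 1 array of any group, and for A_30_P01030265 they included leaving out total ChREBP KO replicate 2 or 3.

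The wild types of the 2 lines differed at 403 probes (14.2%, against 22.1% of all tested probes), more than either deletion changed. Total ChREBP WT was higher for 269 (9.45%, against 14.7%) and lower for 134 (4.71%, against 7.38%). The 8 leading falls in total ChREBP KO were among the former, with differences between the wild types of 0.57 to 0.83. The same total ChREBP WT arrays enter both comparisons, so the choice of the largest falls favoured this direction. Lower levels in total ChREBP WT were largest at A_30_P01018914, with levels of 6.82 to 11.45 in ChREBPβ WT (median 9.26) and of 4.47 to 7.72 in total ChREBP WT (median 5.24), a difference of -3.26 ± 0.77 (adjusted p = 0.00452). The groups overlapped, and 5 of the 7 total ChREBP WT arrays were well above background. Its levels were most like those of Fabp2, a gene of the intestinal lining, and Sult1b1. Ces2e, Ifi27l2b, Ugt2b34 and its nearest named gene Gm10639 also had r above 0.9 with it. The probe shares 23 bases with a probe outside the prefix. A cluster near 85 Mb on chromosome 1 differed nearly as much, with A_30_P01030738 at 6.86 to 10.04 in ChREBPβ WT (median 9.18) and at 5.33 to 5.74 in total ChREBP WT (-3.17 ± 0.54, adjusted p = 0.000327). A_30_P01022910 (-3.14) and A_30_P01026202 (-2.74) accompanied it. The last was well above background on all 7 ChREBPβ WT arrays but on 2 of the 7 total ChREBP WT arrays, so that its difference has no exact size. It entered the test only through the ChREBPβ groups, in which it was high, so its difference had to point that way. Over the 25 arrays, 8 of the probes had r above 0.9 with A_30_P01030738.

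The largest differences in the other direction were on chromosome 10, where A_30_P01027893 had levels of 7.56 to 8.64 in ChREBPβ WT (median 8.14) and of 8.65 to 10.28 in total ChREBP WT (median 10.07). The difference was 1.67 ± 0.23 (adjusted p = 4.09e-05), and the ranges met without overlap. A_30_P01022510 followed with 1.63 ± 0.24. A probe of the nearby growth regulator Btg1 was also higher (1.20), but its brightest probe was lower (-0.33). A_30_P01025122 was higher by 1.12 and A_30_P01022454 by 0.96. The liver marker list moved with this comparison, with a median of -5.46 over its 8 genes. Both tested kidney markers were lower too (median -1.78), as was 1 of 6 lymphocyte markers, and 1 of 3 tested epididymal markers was higher. The mean kidney marker level was 10.58, 11.06 and 9.02 on ChREBPβ WT replicates 1, 3 and 7. On the other ChREBPβ WT arrays it was 5.72 to 6.11, much as in total ChREBP WT (5.74 to 6.06). Mean liver marker levels were 12.62 to 16.45 in ChREBPβ WT and 7.0 to 13.33 in total ChREBP WT. They nearly separated these groups, so a fit with them can hardly tell their part from that of the line. With liver and epididymal marker levels in the fit, 16 of the probes were called in place of 403. All 8 probes named for this comparison then lost the call, and A_30_P01018914 turned to 0.42 ± 1.31. The part of the line, of breeding and of other tissue in these differences was not tested.

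Several probes varied widely between arrays of the same group. A_30_P01025131, on chromosome X, had a pooled SD of 1.44 log2 units and was above 7 on 9 arrays, which were the arrays of 5 slides. The 16 arrays of the other 10 slides read 5.12 to 6.15. In wash batch 3, 5 arrays read 8.64 to 9.99. Another 8 probes on 7 chromosomes, with GC contents of 60 to 78.3%, had r above 0.9 with it, and no probe outside the prefix did. None of the 9 arrays was a total ChREBP KO array. One of those 8 probes is A_30_P01026264, of the X-chromosomal region above (-0.41, adjusted p = 0.39). A_30_P01026518, on chromosome 8, was high on some arrays of every group. It ran from 6.36 to 10.81 in ChREBPβ WT (median 6.91), from 6.45 to 10.59 in ChREBPβ KO (median 6.86) and from 7.05 to 9.89 in total ChREBP WT (median 8.81). In total ChREBP KO it read 9.95, 7.97, 7.66, 10.60 and 6.93. The wild types differed by 1.17 ± 0.73 (adjusted p = 0.269). It had r above 0.9 with 11 other long intergenic RNA probes and 298 other probes, most closely with Sntn, a gene of motile cilia (r = 0.995). Neither probe was called in any comparison.

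**Figure D5:**
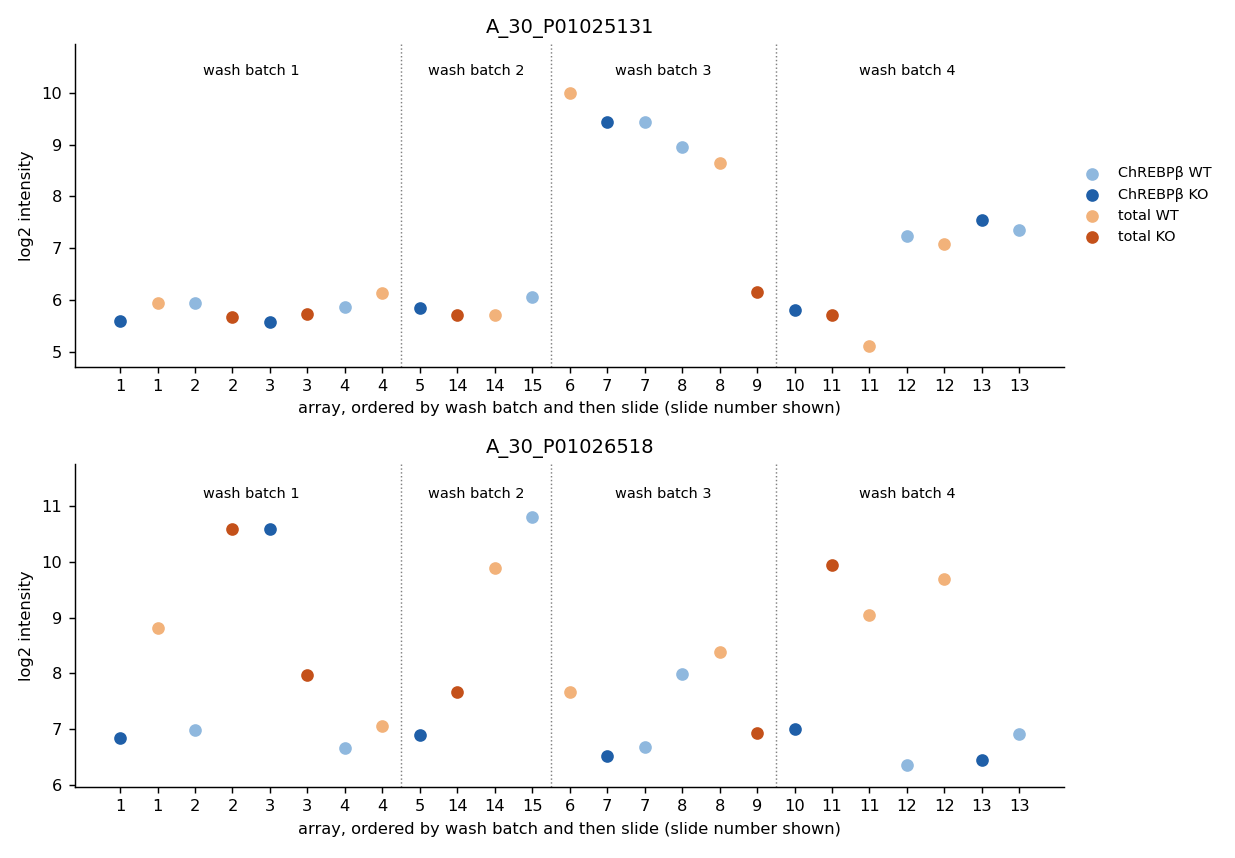
Log2 level of A_30_P01025131 and A_30_P01026518 on each of the 25 arrays, ordered by wash batch and slide and coloured by group. The former is above 7 on 9 arrays of 5 slides, and the latter is above 8 on arrays of all 4 groups, most of them total ChREBP arrays.

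None of the 4 probes with the highest mean level was called between genotypes. A_30_P01031448 had levels of 16.93 to 17.46 over all groups and differed by 0.10 in total ChREBP KO (adjusted p = 0.502). A_30_P01022075 and A_30_P01031264 each differed by 0.04. The other was A_30_P01029720, 1410 bases from and on the strand of Neat1, the RNA scaffold of nuclear paraspeckles. Its levels were 15.94 to 16.70 in total ChREBP WT (median 16.51) and 16.72, 17.13, 16.69, 17.02 and 16.45 in KO, a difference of 0.38 ± 0.13 (adjusted p = 0.0896), while the Neat1 probes rose by 0.50 and 0.52. Of 40 long noncoding RNAs with a gene name that were listed for comparison, 34 were tested by their brightest probe. In total ChREBP KO, 3 rose and 3 fell, among them Snhg11 (0.72) and Pvt1 (-0.57), and in ChREBPβ KO none was called.

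Within 1 Mb of Mlxipl lay 3 of the probes. A_30_P01026165, near Hspb1, had levels of 6.34 to 7.22 in total ChREBP WT (median 7.06) and of 6.11, 6.48, 6.13, 6.53 and 6.06 in KO, with a difference of -0.66 ± 0.17 (adjusted p = 0.0153) and overlapping groups. A_30_P01022024 read 0.35 ± 0.10 (adjusted p = 0.0259) and A_30_P01020772 read 0.05 ± 0.14 (adjusted p = 0.91). The call of A_30_P01026165 was lost without total ChREBP KO replicate 1 or 7 (highest adjusted p over all settings 0.0615). That of A_30_P01022024 was lost in 9 settings, among them leaving out total ChREBP WT replicate 4 or 5 or total ChREBP KO replicate 1 or 2 (highest adjusted p 0.238). In ChREBPβ KO the 3 probes read -0.10, -0.11 and 0.12, with none called.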

How the data were processed

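RNA of 25 fat pads was hybridized to 1-colour Agilent 8x60K mouse arrays. The deposited scanner files hold Cy3 intensity per spot, extracted by the authors with Feature Extraction 10.10.1.1 per the file headers. The deposited series table holds log2 values that the authors had quantile-normalized with preprocessCore after import with limma. From the intensity files, median signals were log2-transformed. Probes flagged as measurable on 21 of 25 arrays, or on 6, 5, 6 and 4 arrays of the respective groups, were kept, 24 outlier values were set missing, and levels were quantile-normalized, with the median taken over replicated spots. limma 3.58.1 (R 4.3.3) fitted 4 groups and 4 wash batches over 39619 probes (18 residual degrees of freedom), with Benjamini-Hochberg adjustment and a threshold of 0.05. On simulated data for the total ChREBP comparison (39619 probes), 70 of 100 differences of 0.5 and 96 of 100 of 1 log2 unit were called, with 5 false calls. The number of arrays limits the precision. The litter and cage behind each array were not given in the sources used here, so p-values measure the spread between these samples.

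Members are the probes with the A_30_P prefix that were also in the deposited table. Positions are mm9, per the file headers. Named were the 3 lowest p in the ChREBPβ line, the 8 largest non-overlapping rises and falls in total ChREBP KO, the 6 largest differences between effects, 4 rises and 4 falls between wild types, the 4 highest means, the 4 largest SDs, probes within 1 Mb of Mlxipl, and regions with several probes. The other genes most like a probe were found over 25 arrays. BLAST 2.17.0 compared probes (e-value under 0.001), and 62 tested members aligned outside the prefix. The members and lists were chosen with earlier results of these data known.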

Additional observations from a re-analysis of the deposited data

Results flagged for a closer look

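The effects of the 2 deletions differed by the test of the difference itself, total ChREBP minus ChREBPβ in log2 units, for 23 of the named probes. Most of these probes were named for a large effect in total ChREBP KO or for this difference. The count thus follows largely from that choice. Over all tested long intergenic RNA probes the share called was 1.79%, against 3.24% of all tested probes. Among the rises in total ChREBP KO the differences were 1.11 for A_30_P01020836, 0.97 for A_30_P01019864, 0.95 for A_30_P01017908, 1.11 for A_30_P01024821, 1.05 for A_30_P01026385, 0.91 for A_30_P01024115, 0.94 for A_30_P01030988, 0.97 for A_30_P01031677 and 0.43 for A_30_P01030520. Among the falls they were -1.52 for A_30_P01032968, -1.12 for A_30_P01026145, -1.07 for A_30_P01021530, -1.13 for A_30_P01023742, -0.92 for A_30_P01031167, -0.97 for A_30_P01018341, -0.75 for A_30_P01024233, -0.86 for A_30_P01032592, -0.81 for A_30_P01032178, -0.71 for A_30_P01028422 and -0.63 for A_30_P01025687. On the Masp1 side they were 1.39 for A_30_P01028355, 1.32 for A_30_P01020675 and 1.25 for A_30_P01030265.

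In 5 of 232 groups of arrays, 1 array stood apart from the rest by Dixon's criterion, where chance alone gives about 1 group in 20. A_30_P01025122 was 9.04 on total ChREBP WT replicate 5, and A_30_P01028422 was 5.78 on ChREBPβ KO replicate 4, both below their groups. A_30_P01025131 was 6.15 on total ChREBP KO replicate 7. A_30_P01026518 was 10.59 on ChREBPβ KO replicate 4 and 10.81 on ChREBPβ WT replicate 2, the arrays on which its level was highest in their groups.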

How the results depend on the processing

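The count of called probes was 0 in the ChREBPβ line under every alternative except without ChREBPβ KO replicate 4, where it was 1 (range over left-out arrays 0 to 1). For total ChREBP KO the 161 became 97 with the strict filter, 268 with array quality weights, 106 with liver and epididymal marker levels as covariates (48 higher, 58 lower, against 110 and 51) and 104 without the 3 total ChREBP WT arrays highest in liver markers, an alternative chosen after seeing the data. Leaving out each array gave 116 to 175. For the difference between effects the 51 became 98 with array quality weights, and 34 to 60 with an array left out. For the wild types the 403 became 184 with the strict filter and 16 with the covariates, and 303 to 434 with an array left out. Liver marker levels nearly separated the wild types, so the fit with covariates can hardly tell them from the line. The strict filter tested 1202 of these probes in place of 2848, so its counts and the main ones are not out of the same number. Otherwise the cause was not tested. Scaling, background correction, the deposited table, slide, scan day and the wash batch term kept each count within 1.5 times. Replicate numbers were not treated as pairs in the main fit. Of same-number pairs between groups, 9 of 29 had a correlation of deviations over 0.1 (median -0.09). Of pairs with different numbers 79 of 204 did (median 0). Such correlations cannot show whether the numbers mark pairs or litters. With the replicate number as a block, 105, 23 and 338 probes were called for total ChREBP KO, the difference and the wild types, and 0 for ChREBPβ KO. A_30_P01020772, not called in total ChREBP KO (0.05), turned to -0.25 with the covariates, -0.04 without total ChREBP WT replicate 2 (range over left-out arrays -0.04 to 0.15) and -0.10 without the 3 arrays. A_30_P01018914 turned to 0.42 between the wild types with the covariates.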
